A study of Mus musculus with 8 samples.

Results

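The genes described are 10 of the fibroblast growth factor (FGF) pathway, of 21887 mouse protein-coding genes in all: the receptor genes Fgfr1, Fgfr2 and Fgfr3, the ETS transcription factor genes Etv4 and Etv5, and the feedback genes Spry1, Spry2, Spry4, Dusp6 and Spred1. They were taken by symbol, and all 10 were found. Their chromatin was mapped by CUT&Tag, where a transposase tethered to a bound antibody tags nearby DNA, in wild-type immortalized multipotent otic progenitors (iMOPs), a mouse line with properties of inner ear progenitors. The first group was the proliferating culture, kept in DMEM/F12 with B27, carbenicillin and 20 ng/ml of the ligand bFGF. The second was the neuron culture derived from the same line, kept in Neurobasal medium with N21, L-glutamine and 1 µM K03861, for which the labels list no bFGF. Each group had 1 library of 500000 cells for each of CHD4 (the ATPase of the NuRD remodelling and deacetylase complex), H3K4me3 (trimethylated lysine of histone H3, found at active promoters) and p300 (a histone acetyltransferase of enhancers and promoters), and the 6 peak lists were compared. With 1 library per antibody and state, as the samples are labelled, the states are compared without replicates and no p-value is given. The 2 cultures differ in medium, bFGF, K03861 and cell state together, and these cannot be told apart.

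FGF ligands bind receptor tyrosine kinases on the cell surface, which signal through Ras and the MAP kinases ERK1 and ERK2. ERK signalling turns on the ETS factors Etv4 and Etv5 and a set of inhibitors that dampen the same pathway: the Sprouty proteins and Spred1 act on the steps from receptor to Raf, and Dusp6 is a cytoplasmic phosphatase that inactivates ERK. In the developing inner ear, FGF signalling takes part in otic induction and in the formation of the auditory epithelium, and bFGF is used to keep otic progenitors dividing in culture.

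Etv5, Dusp6 and Spred1 carried CHD4, p300 and H3K4me3 together at the transcript start in proliferating cells. Their promoters are shown to place the highest CHD4 and p300 signal relative to the start. The sequences are from RefSeq for GRCm38.p6 (mm10 coordinates) and run 5′ to 3′ on the gene's strand from 250 bases before the annotated start to 50 after it. Capitals mark the 50-bp position of highest signal that a p300 peak and a CHD4 peak shared.

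Etv5 (chr16:22439521-22439820, minus strand): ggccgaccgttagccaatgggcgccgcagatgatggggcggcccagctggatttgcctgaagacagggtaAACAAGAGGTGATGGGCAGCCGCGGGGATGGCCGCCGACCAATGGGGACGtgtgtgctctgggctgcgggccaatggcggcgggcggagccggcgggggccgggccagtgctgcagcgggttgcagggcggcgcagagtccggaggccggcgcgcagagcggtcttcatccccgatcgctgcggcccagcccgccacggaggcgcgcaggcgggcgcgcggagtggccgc
Dusp6 (chr10:99262981-99263280, plus strand): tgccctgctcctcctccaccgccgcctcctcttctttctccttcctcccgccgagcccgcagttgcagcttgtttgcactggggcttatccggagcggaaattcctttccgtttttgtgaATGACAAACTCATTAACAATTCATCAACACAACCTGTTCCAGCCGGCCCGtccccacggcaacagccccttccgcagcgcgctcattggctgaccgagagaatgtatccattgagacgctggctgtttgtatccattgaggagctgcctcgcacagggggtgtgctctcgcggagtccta
Spred1 (chr2:117120821-117121120, plus strand): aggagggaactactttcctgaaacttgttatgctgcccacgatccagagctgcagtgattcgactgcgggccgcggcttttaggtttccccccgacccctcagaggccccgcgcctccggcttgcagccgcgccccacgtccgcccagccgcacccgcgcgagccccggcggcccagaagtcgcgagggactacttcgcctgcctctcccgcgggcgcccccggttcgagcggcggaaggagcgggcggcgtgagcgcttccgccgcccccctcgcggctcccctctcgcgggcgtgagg

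At Etv5 the capitals cover 22439701 to 22439750, and 3 lists had their highest signal in that same position: CHD4 in proliferating cells, CHD4 in neurons and p300 in proliferating cells. The highest H3K4me3 signal of proliferating cells lay 100 bp nearer to the start, from 22439601 to 22439650. At Dusp6 the capitals cover 99263101 to 99263150, the highest position of p300 in proliferating cells and of CHD4 in neurons. The highest CHD4 and H3K4me3 signal in proliferating Dusp6 chromatin lay from 99263251 to 99263300, just after the start at 99263231. The Spred1 sequence has no capitals, since the highest CHD4 signal lay at 117120301 to 117120350 and the highest p300 signal at 117120401 to 117120800, both further upstream. Etv5 has another annotated start at 22438368, which the same peaks also covered.

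Short motifs were searched on both strands in the promoters that the RefSeq table holds, 9 sequences of 7 of the genes. The ETS core CCGGAA matched 1 of 9 (Spry2) and was found in 18.7% of 21263 promoter sequences of protein-coding genes. The ETS core AGGAAG matched 3 of 9 (Fgfr2, Dusp6 and the inner Etv5 start) against 34.4%. The E-box CANNTG matched 6 of 9 against 69.0%, and the SOX core ACAANG matched 2 of 9 against 38.1%. The AP-1 element TGANTCA and the CRE TGACGTCA matched none of the 9, and were found in 6.99% and 2.23% of all these promoters. The bases are a description of the window, and no match says only that these letters are not in it.

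H3K4me3 was listed at an end of all 10 genes in the proliferating culture and of 3 in the neuron culture. The proliferating list has 7472 peaks and the neuron list 5625. With the former trimmed to the same length, H3K4me3 was at 9 of the 10 genes in proliferating cells, not at Fgfr3. A gene end was the window of 1 kb either side of an annotated end of the gene, and a peak counted there when it shared at least 1 bp with the window. Of all protein-coding genes, 37.6% had H3K4me3 at an end in proliferating cells and 30.0% in neurons. Among the genes that had the mark in proliferating cells, 21.9% did not have it in neurons, and among the 10 it was 7: Fgfr2, Fgfr3, Etv4, Etv5, Spry1, Spry4 and Dusp6. The H3K4me3 and CHD4 peaks at Spry4 also lie at an end of the neighbouring gene Arhgap26. H3K4me3 was listed in both states at Fgfr1, Spry2 and Spred1. For the 7, the nearest neuron H3K4me3 peak on the chromosome was between 56.0 kb (Fgfr3) and 299.7 kb (Spry4) away.

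CHD4 was listed at an end of Etv5, Spry4, Dusp6 and Spred1 in proliferating cells, 4 of the 10, and of Etv5 and Dusp6 in neurons, 2 of the 10, where 11.8% and 9.95% of all genes had it. p300 was listed at an end of 3 in proliferating cells (Etv5, Dusp6 and Spred1) and of none in neurons, against 8.44% and 1.24% of all genes. The neuron p300 list has 965 peaks and the proliferating list 3144, and with the latter trimmed to the same length p300 was at 1 of the 3, Etv5. The 3 genes that had p300 at an end also had CHD4 there, and 91.9% of all proliferating p300 peaks overlapped a proliferating CHD4 peak. All protein-coding genes with H3K4me3 at an end in proliferating cells had CHD4 at an end in 27.1% of cases and p300 in 19.8%.

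**Figure D1:**
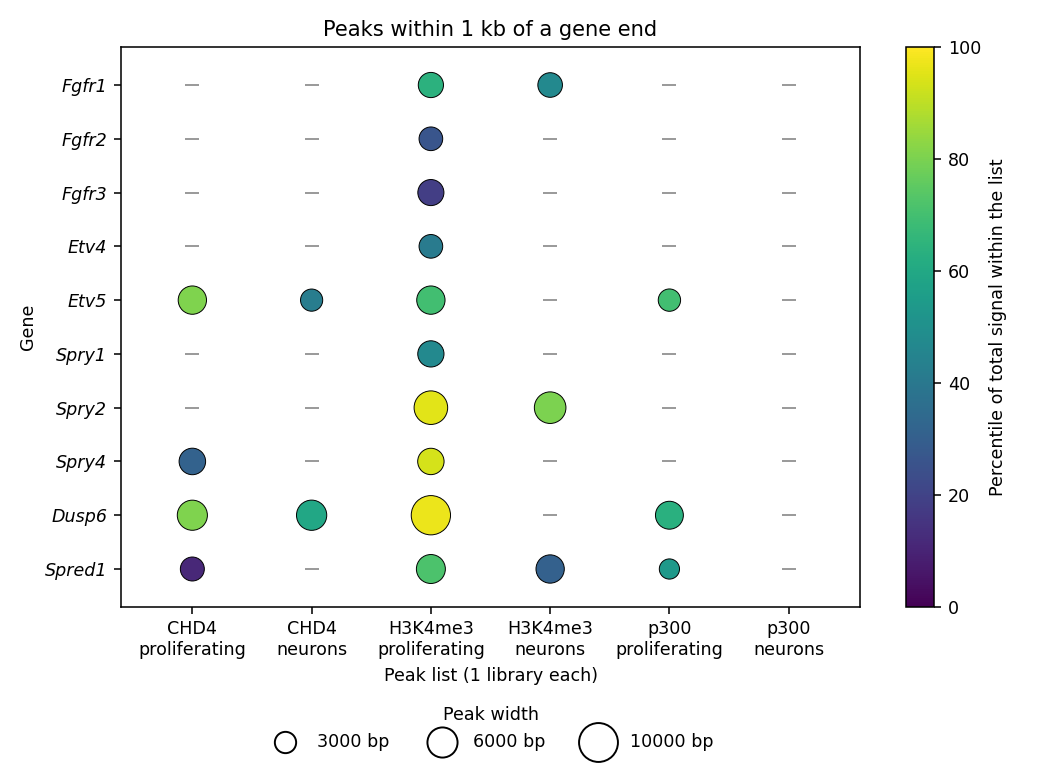
Peaks within 1 kb of an end of each of the 10 genes (rows) in the 6 lists (columns, 1 library each). A circle is a listed peak, its area is proportional to its width in bp and its colour gives the percentile of total signal within the list; a dash means no peak. H3K4me3 fills the proliferating column at 10 genes and the neuron column at 3, and the neuron p300 column is empty.

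Each deposited peak has a total signal and a highest signal. How these were scaled is unknown here, so they serve only to rank peaks within a list, as a percentile that is 100 for the strongest peak. Total signal grows with width.

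The receptor genes stood low or in the middle of the H3K4me3 list. Fgfr1 (chromosome 8, 25518759 to 25575718) encodes a main receptor for bFGF. Its H3K4me3 peak spanned 4200 bp in proliferating cells, at the 63.7th percentile, and 4000 bp in neurons, at the 46.9th, with the highest signal at the same 50-bp position in both. No CHD4 or p300 peak was listed at an end of Fgfr1. Inside the gene, proliferating cells had 3 CHD4 peaks, 15.44, 22.54 and 34.34 kb from the marked end at their near edge, at the 39.4th, 80.2nd and 57.4th percentiles. Neurons had the latter pair, with the highest signal at the same positions, at the 37.1st and 5.44th percentiles. p300 was listed at that pair in proliferating cells, at the 63.7th and 6.49th percentiles, and at neither in neurons. The CHD4 peak nearest to the marked end, 4050 bp wide, was listed in proliferating cells only and overlapped no p300 peak.

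Fgfr2 (chromosome 7, 130162451 to 130266808), which encodes a receptor with epithelial and mesenchymal splice forms, had 1 peak in its whole territory. This was H3K4me3 in proliferating cells, 3700 bp wide and at the 26.2nd percentile, at the transcript start. No CHD4 or p300 peak lay in its 104358 bp or within 50 kb of it in either state. Fgfr3 (chromosome 5, 33721724 to 33737068), whose product restrains growth in cartilage and acts in the auditory epithelium, had H3K4me3 over its start in proliferating cells, 4500 bp wide and at the 18.2nd percentile, the weakest of the 10 peaks. Its CHD4 lay outside the gene, 30.37 kb before the start in proliferating cells (4850 bp, 52.0th percentile) and 29.97 kb before it in neurons (7950 bp, 67.1st percentile). The proliferating CHD4 peak overlapped a p300 peak of 4350 bp at the 36.3rd percentile. This site lay in no other protein-coding gene.

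The ETS factor genes differed in where CHD4 lay. Etv4 (chromosome 11, 101769747 to 101785310), a target of FGF signalling often read as a marker of its activity, had H3K4me3 at the gene end at 101785310 in proliferating cells (3700 bp, 41.4th percentile) and no other peak at an end. Beyond that end, at 27.64 and 44.69 kb, lay CHD4 peaks of 4550 and 2950 bp at the 83.3rd and 53.2nd percentiles, and each overlapped p300 (66.0th and 20.8th percentiles). In neurons CHD4 was listed at the nearer of these sites, 5850 bp wide and at the 25.3rd percentile, and p300 at neither.

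Etv5 (chromosome 16, 22381313 to 22439570), a close relative of Etv4, had CHD4 at its start in both states. The peak ran from 22438251 to 22443550 in proliferating cells (5300 bp, 80.6th percentile) and from the same edge to 22441500 in neurons (3250 bp, 42.0th percentile). By highest signal these peaks stood at the 93.8th and 84.6th percentiles of their lists. The part listed in proliferating cells only lay outside the gene. H3K4me3 (5300 bp, 69.8th percentile) and p300 (3300 bp, 69.7th percentile) at the start were listed in proliferating cells only. A second site, 8.47 kb inside the gene, had CHD4 (3350 bp, 61.7th percentile) and p300 (3000 bp, 9.46th percentile) in proliferating cells and no peak in neurons.

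By total signal, the 3 strongest proliferating H3K4me3 peaks of the 10 lay at the feedback genes Dusp6, Spry2 and Spry4. That at Spry4 lies at an end of the neighbouring gene Arhgap26 as well. By highest signal the peak at Etv5 stood first of the 10 peaks. Dusp6 (chromosome 10, 99263231 to 99267489) had the strongest of them by total signal. It spanned 10200 bp, from 99259751 to 99269950, covered the gene wholly and ranked 234th of 7472 (96.9th percentile). In neurons the nearest H3K4me3 peak was 150.0 kb away. CHD4 spanned 6000 bp there in proliferating cells (80.7th percentile) and 6050 bp in neurons (59.5th percentile), with the inner edge at the same position. By highest signal these CHD4 peaks stood lower, at the 66.0th and 28.6th percentiles of their lists. p300 in proliferating cells spanned 5150 bp (63.5th percentile) and was absent from the neuron list. Thus at Dusp6 and Etv5 the CHD4 peak was listed in both states, and H3K4me3 and p300 in proliferating cells only.

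Spry4 (chromosome 18, 38586247 to 38601347) had H3K4me3 (4600 bp, 93.5th percentile) and CHD4 (4650 bp, 31.0th percentile) in proliferating cells, and nothing listed in neurons. An end of the neighbouring gene Arhgap26 lies 270 bp from this end of Spry4, so both peaks also lie at an end of Arhgap26 and cannot be given to either gene. Spred1 (chromosome 2, 117121071 to 117182279), which recruits the Ras inhibitor neurofibromin, had H3K4me3 in both states (5550 and 5300 bp, 71.6th and 30.7th percentiles). Its CHD4 peak (3800 bp, 11.0th percentile) and p300 peak (2700 bp, 53.7th percentile) were listed in proliferating cells only.

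Spry1 (chromosome 3, 37639947 to 37644599) and Spry2 (chromosome 14, 105891947 to 105896819) carried neither CHD4 nor p300 within 50 kb in either state. In proliferating cells H3K4me3 at Spry1 spanned 4550 bp (47.1st percentile), over 86.1% of the gene, and was not listed in neurons. At Spry2 it spanned 7450 bp in the proliferating list (95.5th percentile) and 6600 bp in the neuron list (80.2nd), over 92.7% and 83.5% of the gene. The highest signal at Spry2 lay 3169 bp after the start in proliferating cells and 494 bp after it in neurons. So of the Sprouty genes named here, H3K4me3 was listed in both states at Spry2 and in proliferating cells only at Spry1 and Spry4. The Spry4 peak also lies at an end of Arhgap26.

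**Figure D2:**
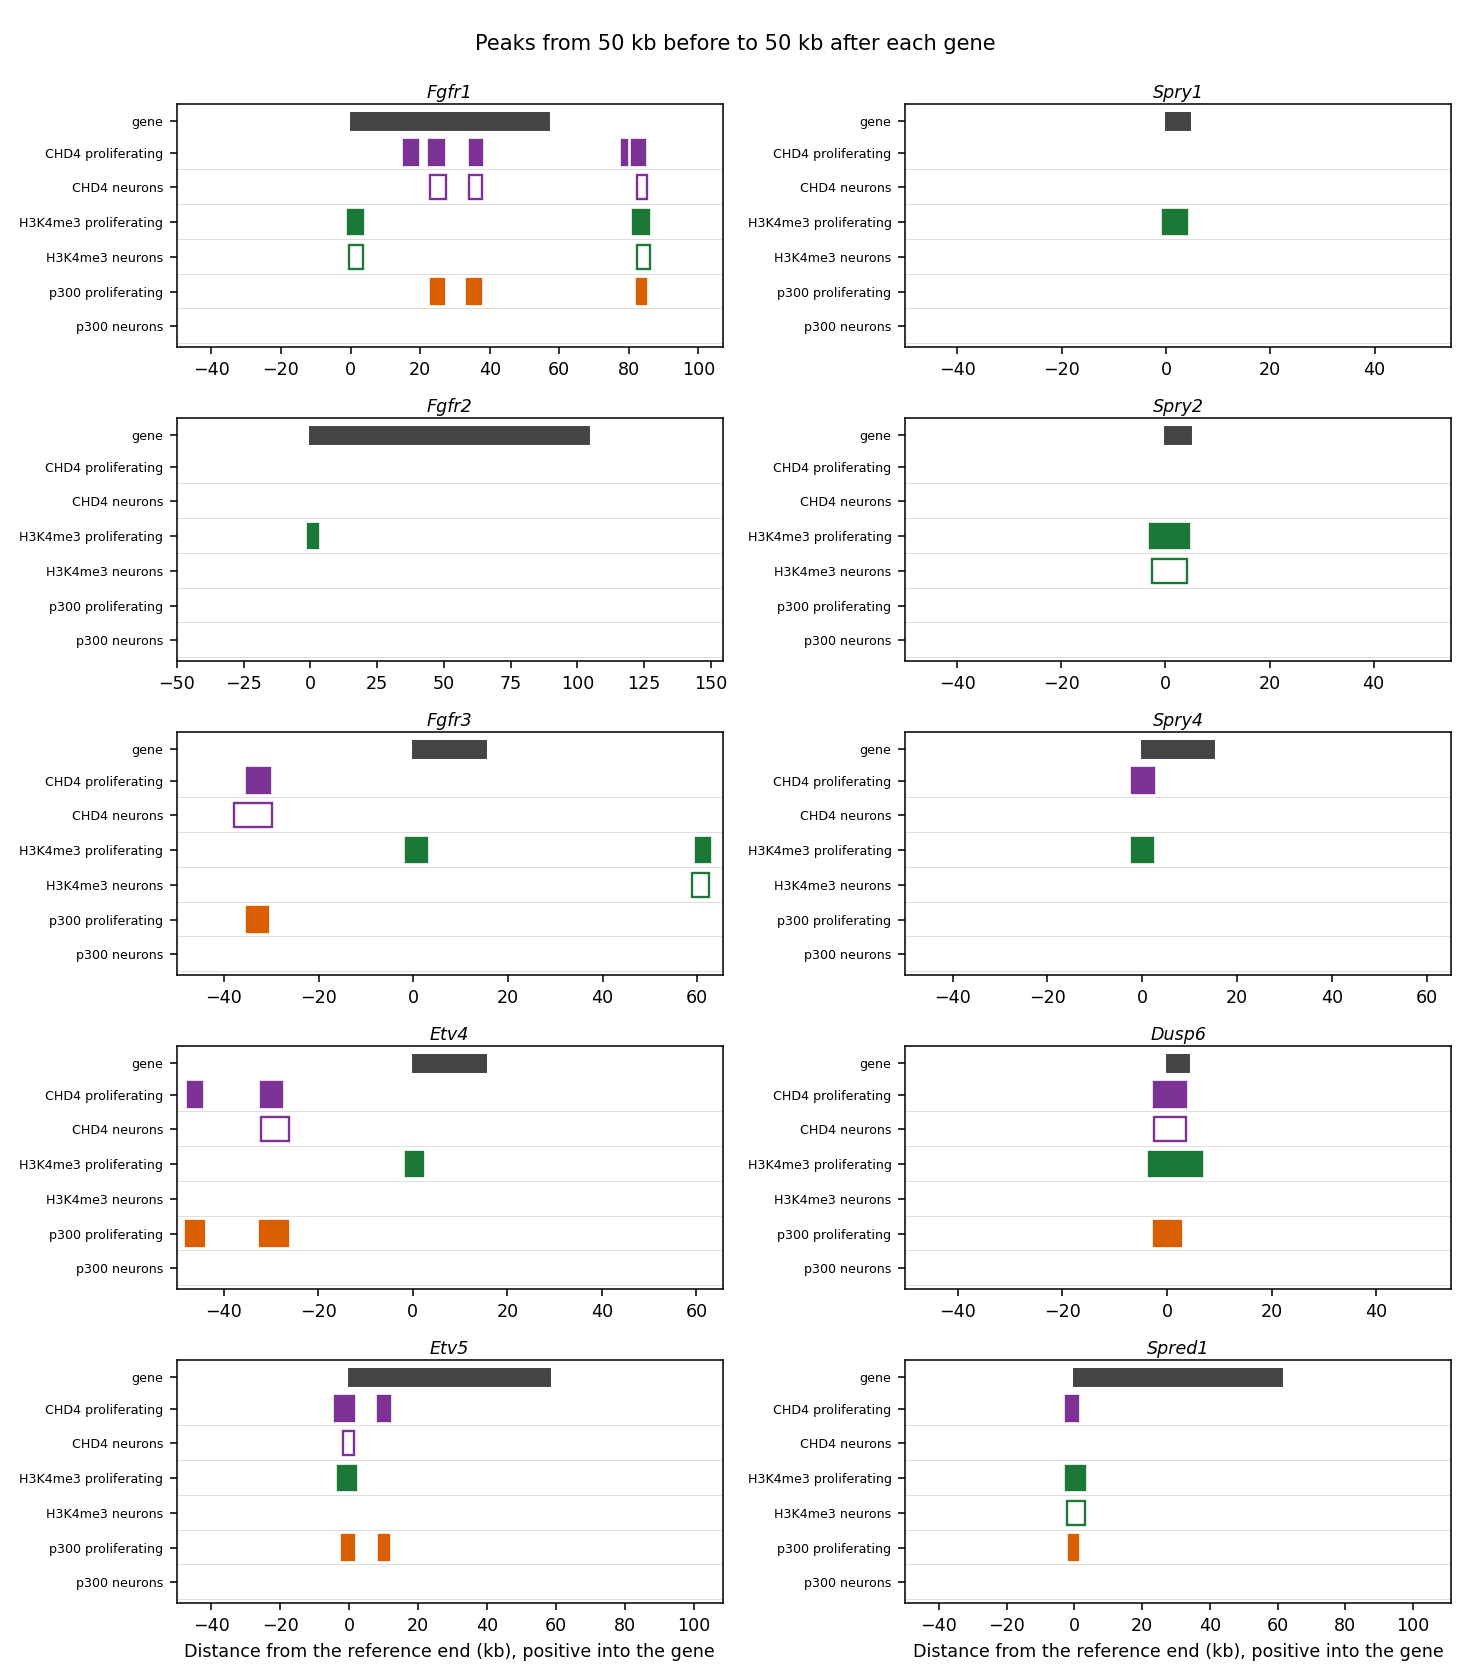
Peaks of the 6 lists around each gene, from 50 kb before to 50 kb after it. The x axis is the distance in kb from the transcript start, or for Fgfr1, Etv4 and Spry4 from the gene end with H3K4me3, positive into the gene; the dark bar is the gene, filled boxes are proliferating peaks, open boxes neuron peaks, and boxes are drawn to width. At the start of Etv5 and Dusp6, CHD4 boxes appear in both states and H3K4me3 and p300 boxes in proliferating cells only.

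The strength of a peak moved with whether it was found again in neurons, so each gene was set beside peaks of similar rank. Of all proliferating H3K4me3 peaks, 69.6% had no overlapping neuron peak between the 0th and 25th percentiles of total signal, 26.9% between the 25th and 50th, 6.10% between the 50th and 75th and 1.45% above the 75th. Fgfr3 lay in the first of these bands and Fgfr2, Etv4 and Spry1 in the second, and all 4 had no neuron peak. Of the 3 genes in the third band, Fgfr1 and Spred1 had a neuron peak and Etv5 did not. Of the 3 in the top band, Spry2 had one and Spry4 and Dusp6 did not. The H3K4me3 peak at Dusp6 ranked 4th by total signal among the 1943 proliferating peaks with no neuron counterpart. The one shared by the ends of Spry4 and Arhgap26 ranked 7th and the one at Etv5 40th.

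By highest signal in place of total signal, the corresponding shares were 48.3%, 34.6%, 17.4% and 3.85%. On that scale the peaks at Dusp6 (66.8th percentile) and Spry4 (60.9th) lay in the third band and the peak at Etv5 (78.7th) in the top one. The peaks at Dusp6 and Spry4 thus ranked higher by total than by highest signal, and so did those at the other genes except Etv5. By highest signal the peaks at Spry2, Fgfr1 and Spred1, which had a neuron peak, stood at the 45.3rd, 44.9th and 38.8th percentiles. Whether antibody yield or sequencing depth had a part in the absence of the Dusp6 and Spry4 peaks from the neuron list was not tested. In a bulk culture, fewer cells with the mark and less of it per cell cannot be told apart.

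For CHD4 the corresponding shares without a neuron peak were 65.6%, 41.5%, 20.5% and 7.57%. The peaks at Etv5 and Dusp6, both in the top band, had a neuron peak. The peak at Spry4 in the second band and that at Spred1 in the first had none. Of the 2575 genes with CHD4 at an end in proliferating cells, 63.7% had it in neurons, and of the 4 described here 2 did.

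For p300 the shares were 92.0%, 87.9%, 78.8% and 47.3%, and 76.5% over the whole list. None of the 10 p300 peaks around these genes had a neuron counterpart, and none of them lay in the top band. No neuron p300 peak lay anywhere from 50 kb before to 50 kb after any of the 10 genes, where 7.25% of all protein-coding genes had one. The gap from gene to nearest neuron p300 peak was smallest at Etv5 (75.3 kb) and Etv4 (109.3 kb).

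**Figure D3:**
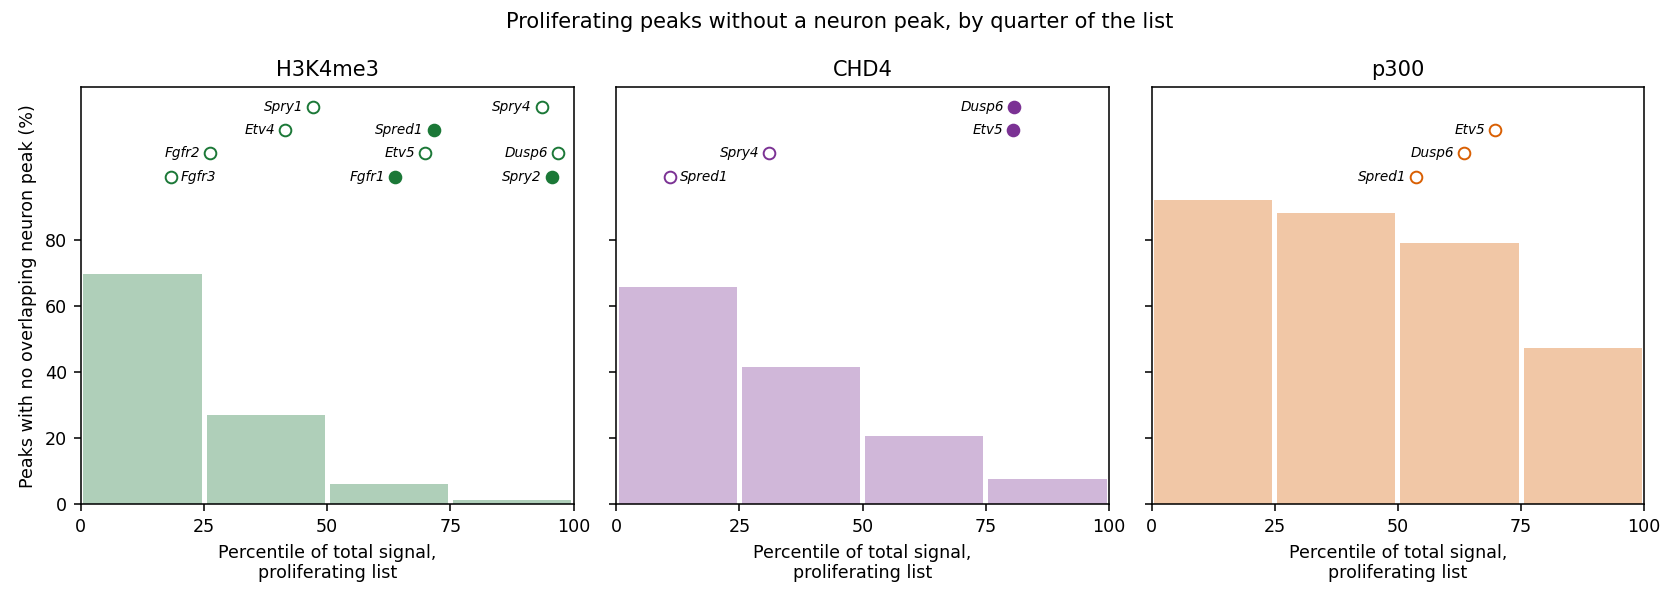
Bars give the percentage of all proliferating peaks with no overlapping neuron peak of the same antibody, in 4 bands of total signal percentile (x axis). Circles above the bars place the gene end peaks of the 10 genes on the same x axis, filled where a neuron peak was listed at an end and open where not; their height has no meaning. Spry4 and Dusp6 are open in the H3K4me3 band where 1.45% of peaks lack a neuron peak. The Spry4 peaks also lie at an end of Arhgap26.

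Combinations of calls over the 6 lists divided the 10 genes into 5 patterns. Fgfr2, Fgfr3, Etv4 and Spry1 had H3K4me3 in proliferating cells and nothing else at an end, as did 1386 protein-coding genes, these 4 included. Fgfr1 and Spry2 had H3K4me3 in both states and nothing else, a pattern of 4165 genes. Etv5 and Dusp6 shared CHD4 in both states with H3K4me3 and p300 in proliferating cells only, a pattern of 108 genes. The pattern of Spry4, CHD4 and H3K4me3 in proliferating cells only, was that of 119 genes, and that of Spred1, all 3 in proliferating cells with H3K4me3 also in neurons, of 255. Of the 1443 genes with CHD4, p300 and H3K4me3 at an end in proliferating cells, 11.9% had no H3K4me3 at an end in neurons, among them Etv5 and Dusp6 but not Spred1. Of the 1797 genes whose H3K4me3 was listed in proliferating cells only, 13.0% had CHD4 at an end in neurons, and of the 7 described here Etv5 and Dusp6 did.

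Peak widths were also compared where a gene had a peak in both states. H3K4me3 was narrower in neurons at Fgfr1 (4200 and 4000 bp), Spry2 (7450 and 6600 bp) and Spred1 (5550 and 5300 bp), and at 35.4% of the 6427 genes with the mark in both states. The CHD4 peak was narrower in neurons at Etv5 (5300 and 3250 bp) and wider by 1 coordinate step at Dusp6 (6000 and 6050 bp). It was narrower at 17.4% of the 1640 genes with CHD4 in both states.

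Away from gene ends, CHD4 and p300 lay at the same genes in proliferating cells, where 91.9% of all p300 peaks overlapped CHD4. CHD4 was listed in the gene body or within 50 kb outside the gene, beyond the end windows, at 4 of the 10 genes in proliferating cells (Fgfr1, Fgfr3, Etv4 and Etv5) and at 3 in neurons (the same without Etv5), where 28.8% and 25.3% of all genes had such a peak. p300 was listed there at the same 4 in proliferating cells and at none in neurons, against 22.3% and 6.39%. H3K4me3 was listed there at Fgfr1 and Fgfr3 in each state, against 45.4% and 38.0%, and in both cases the peak lay at an end of a neighbouring gene, Nsd3 and Letm1. The body or flank window grows with gene length and holds neighbours, which these shares do not correct for. Of the 5 proliferating CHD4 peaks in a flank, 2 lay at an end of Letm2 or Nsd3, next to Fgfr1.

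All 10 proliferating p300 peaks around these genes overlapped a proliferating CHD4 peak, as did 91.9% of all proliferating p300 peaks. Of the 13 proliferating CHD4 peaks around the genes, 10 overlapped p300 there and 7 overlapped a neuron CHD4 peak, against 58.1% and 66.2% of all 4919 proliferating CHD4 peaks. All 7 neuron CHD4 peaks around the genes overlapped a proliferating CHD4 peak and a proliferating p300 peak, against 67.4% and 49.1% of all 4599 neuron CHD4 peaks. The 6 proliferating CHD4 peaks with no neuron counterpart were the one at the start of Spred1, the one shared by the ends of Spry4 and Arhgap26, 1 site inside each of Fgfr1 and Etv5, the farther site by Etv4 and the one at Letm2.

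The rest of the pathway was read from a list of 66 further genes, all found. H3K4me3 was listed at 35 of them in proliferating cells and 28 in neurons, with 27 in both states, CHD4 at 16 and 12, and p300 at 11 and 2. The mark was thus not listed in neurons at 8 of the 35, close to the share of all genes given above (21.9%). Over all protein-coding genes, H3K4me3 was at 37.6% and 30.0%, CHD4 at 11.8% and 9.95%, and p300 at 8.44% and 1.24%. Of the 18 signal relay genes, H3K4me3 was at 16 and 14, and not in neurons at Frs2, Nras and Mapk3, while Braf had it in neurons only. The proliferating peaks at Frs2, Nras and Mapk3 stood at the 6.71st, 25.6th and 8.18th percentiles, and the neuron peak at Braf at the 2.02nd. Of the 11 other feedback genes it was at 7 and 4, and not in neurons at Spred3, a relative of Spred1, Nf1, the gene of neurofibromin, and Cbl, a ubiquitin ligase of activated receptors. The proliferating H3K4me3 peak at Spred3 stood at the 72.8th percentile, those at Nf1 and Cbl at the 10.6th and 2.61st. Of the 11 other ETS and early response genes it was at 8 and 7, and not in neurons at the cyclin gene Ccnd1 (27.7th percentile). Of the 22 ligand genes 2 and 1 had it, Fgf18 in proliferating cells only (65.4th percentile).

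CHD4 at an end was listed in proliferating cells only at Fgf16 and Spred3, at the adaptor genes Grb2 and Gab1 and at the phospholipase gene Plcg1, all at or below the 31.5th percentile. It was listed in neurons only at Egr1, an early response factor gene (62.2nd percentile). p300 was listed in proliferating cells only at Fgf11, Shc1, Gab1, Plcg1, Spred2, Dusp4, Etv1, Fos and Ier2, and in neurons only at none. Dusp4, a nuclear ERK phosphatase related to Dusp6, had H3K4me3 of 6250 bp in each state, whereas Dusp6 had none in neurons. The Dusp4 peak stood at the 96.8th percentile in the proliferating list and at the 57.7th in the neuron list. Spred2, related to Spred1, had H3K4me3 and CHD4 in both states. Etv1, the remaining gene of the Etv4 and Etv5 family, had them in both states too, with H3K4me3 of 8400 and 5150 bp. Fgfr4, chosen here after its values were seen, had CHD4 (92.5th and 93.9th percentiles) and p300 (86.1st and 90.2nd) at an end in both states and H3K4me3 in neither.

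**Figure D4:**
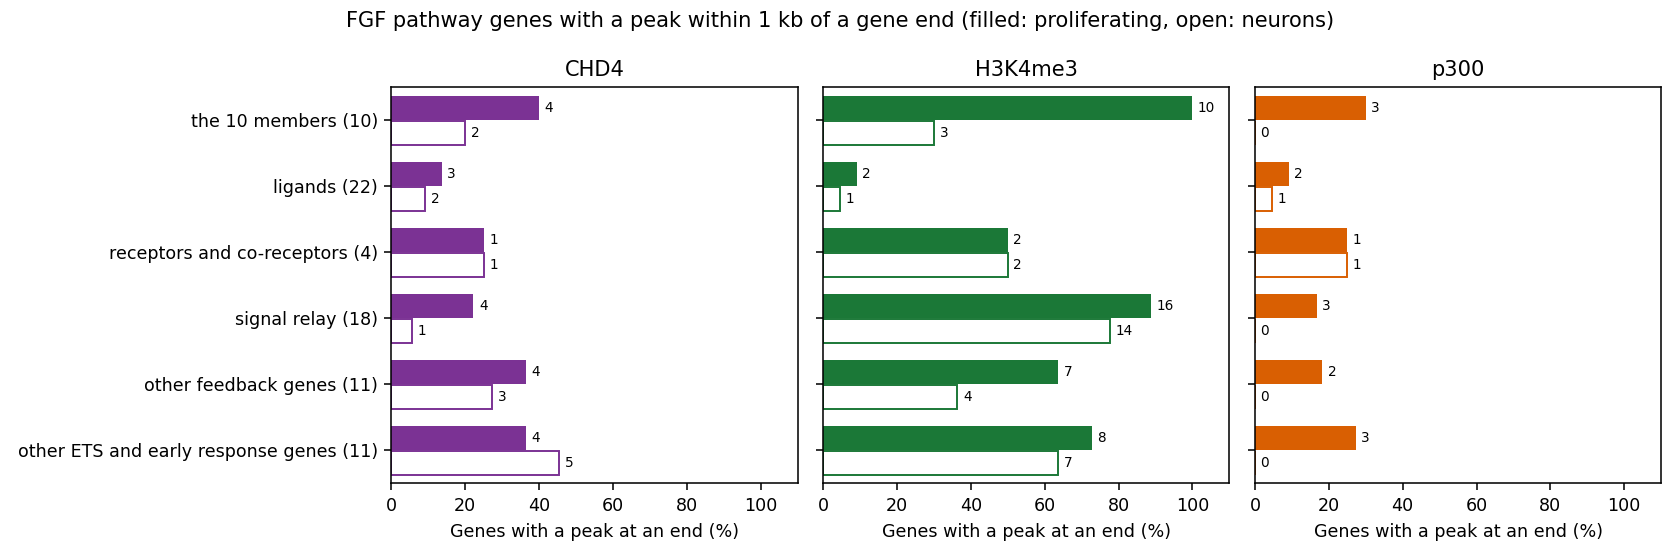
Share of genes with a peak within 1 kb of an end (x axis, percent), for the 10 genes described here and 5 groups of other FGF pathway genes (number of genes in brackets), in 1 panel per antibody. Filled bars are proliferating cells, open bars neurons, and the number beside a bar is the count of genes. H3K4me3 goes from 10 to 3 of the 10 genes and from 16 to 14 of the 18 signal relay genes.

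The cultures were checked against markers by H3K4me3 at a gene end. Of 8 otic progenitor markers, Sox2 and Jag1 had the mark in both states and Eya1 in proliferating cells only. Pax2, Pax8, Dlx5 and Gata3 had no H3K4me3 peak at an end in either state. Of 12 neuronal markers, Tubb3 and Map2 had it in both states and Elavl3 in neurons only, so most neuronal markers, Dcx and Neurod1 among them, had no H3K4me3 peak at an end in the neuron list. No marker of hair cells, glia or mesenchyme (5 each) had it in either state.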

How the data were processed

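The samples were 8 CUT&Tag libraries, 1 per antibody and state, of which 6 have peak lists used here; the pair of IgG controls was not analysed here, and no IgG signal is given. Per the submitters' processing notes, Bowtie2, deepTools, SEACR and mm10 were used; versions, parameters, thresholds, duplicate handling, use of IgG and pooling are not given in the sources used here. All deposited lists hold a total and a highest signal per peak in the 6 columns that SEACR writes, with no read counts, so depth is unknown. Peak coordinates fall on a 50-bp grid except for 6 values.

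Gene spans came from RefSeq GRCm38.p6 and transcript starts from the RefSeq promoter table, which holds 7 of the 10 genes; exons and introns were not used. Windows were 1 kb at gene ends and 50 kb for flanks. For all 21887 genes the same calls gave the background shares. Scripts (Python 3.11.15, numpy 2.4.6, pandas 2.3.3, matplotlib 3.10.9) were tested on simulated peaks and checked against bedtools. The genes, lists and motifs were chosen with earlier results of these data known. All 10 genes are named; of the 66 pathway genes, those with CHD4 or p300 at an end in 1 state, plus, chosen after their values were seen, relatives of the 10 and the genes behind small H3K4me3 counts; of the promoters, 1 start for each gene with CHD4 or p300 at its start. The bands of signal and the width comparison were chosen after seeing the data. One otic marker is not reported here. Alternatives changed windows, flanks, overlap and list length.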

Additional observations from a re-analysis of the deposited data

How the results depend on the processing

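Which of the 10 genes had a peak at an end did not change in any list with windows of 500 bp or 2.5 kb, or when 500 bp of a window had to be covered. Keeping the 50% of peaks with the highest total signal, the counts were 2 for proliferating and 1 for neuron CHD4, and 6 for proliferating and 1 for neuron H3K4me3. With the stronger 50% by highest signal, an alternative added after seeing the data, they were 2, 1, 3 and 1, and 1 for proliferating p300. CHD4 in neurons was then at Dusp6 alone by total signal and at Etv5 alone by highest signal, so their shared pattern rests on the full list. With both states trimmed to the shorter list, proliferating p300 was at 1 gene, Etv5. For body and flank, a flank of 20 kb left 2 genes with proliferating and 1 with neuron CHD4, 0 with H3K4me3 in either state and 2 with proliferating p300. A flank of 100 kb gave 5 genes with neuron CHD4 and 1 with neuron p300 (Etv5). Leaving out flank peaks at an end of another gene left 0 with H3K4me3 in either state. The stronger 50% by total signal (added) gave 1 gene with neuron CHD4 and 2 with proliferating p300. The other counts lay within 1.5 times their value above. Unknown depth and thresholds and 1 library per group limit every comparison of the states.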
